A study of Rattus norvegicus with 8 samples.

Results

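ABC transporters are membrane pumps that use ATP to move compounds across a membrane, and the genes described here encode the members of the family best known for exporting drugs. Members were chosen by gene symbol: Abcb1b, Abcb1a and Abcb4 of subfamily B, Abcc1, Abcc3, Abcc4 and Abcc5 of subfamily C, and Abcg2 of subfamily G. All 8 were found, each in 1 row, among 24059 genes in the table. The family itself was selected on the change of Abcb1b between doxorubicin and control in these same libraries, so that change and the call it received are given as a description and support nothing.

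PolyA-enriched RNA was sequenced from GFP-positive germ cells of the testes of prepubertal Sprague-Dawley rats, all of them transgenic for the GCS-EGFP reporter. Rats 2, 3, 6 and 8 were given doxorubicin, an anthracycline that traps topoisomerase II on DNA, at 5 mg/kg on postnatal day 6, and rats 1, 4, 5 and 9 were given vehicle. Cells were collected 24 h after exposure, and each of the 8 libraries is labelled as a separate rat. RNA samples of high integrity had been picked for sequencing, per the labels. The tissue and cell type labels read testis and germ cells, and a cell line field reads SSC for cells that were isolated from animals.

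P-glycoprotein is the classic efflux pump of cancer cells, and doxorubicin is among its substrates. In rat and mouse it is encoded by a pair of genes, Abcb1a and Abcb1b, which lie beside Abcb4. The ABCC proteins, also called multidrug resistance proteins (MRPs), export organic anions and compounds joined to glutathione, glucuronate or sulfate. Abcg2 encodes the breast cancer resistance protein, known for pumping dye out of many stem cells. In the testis such pumps are known from capillary endothelium and from Sertoli cells, where they limit the entry of drugs.

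Total estimated counts per library ran from 41665785 to 58871101 after doxorubicin and from 41253848 to 57700969 in controls. Levels are given in CPM, counts scaled to library depth with TMM factors, and in the smallest library 1 CPM before those factors stood for 41.3 counts. The summed level of 10 germ cell markers was 2888 to 3018 CPM after doxorubicin and 2850 to 2911 CPM in controls, with Dazl the highest. Against this, the sums were 75.1 to 91.4 CPM after doxorubicin and 77.0 to 86.2 CPM in controls for 10 Sertoli markers (Inha the highest), and 4.61 to 9.996 CPM after doxorubicin and 6.33 to 8.71 CPM in controls for 7 Leydig markers. They were 56.4 to 73.1 CPM after doxorubicin and 63.9 to 79.5 CPM in controls for 9 peritubular and stromal markers (Col1a1 the highest), and 22.3 to 23.8 CPM after doxorubicin and 20.4 to 26.9 CPM in controls for 10 macrophage and leukocyte markers (Mrc1 the highest). Doxorubicin rat 2 stood apart from the other treated rats in several induced genes, and the log2 fold changes of Abcb1b, Abca12, Tap1 and Abca1 are also given without it.

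Abcb1b (ENSRNOG00000066042.1) had 20.2, 9.31, 9.03 and 11.0 CPM in doxorubicin rats 2, 3, 6 and 8, against 2.01, 1.95, 1.38 and 1.41 CPM in control rats 1, 4, 5 and 9. Every treated library lay above every control library, and the lowest treated value was 4.51 times the highest control value. Over all genes tested, 2.77% lay higher in this way and 4.72% were without overlap in either direction. The group levels were 12.4 ± 5.28 CPM after doxorubicin and 1.69 ± 0.33 CPM in controls (SD, n = 4 each). The log2 fold change was 2.87 ± 0.30 (SE), which corresponds to an interval of 4.56-fold to 11.7-fold. Doxorubicin rat 2 was the highest of the treated rats, and without it the log2 fold change was 2.53. In bulk RNA, more cells with the transcript and more transcript per cell cannot be told apart.

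The other P-glycoprotein gene, Abcb1a (ENSRNOG00000008012.8), had low counts in all 8 rats. It had 0.571, 0.523, 0.644 and 0.290 CPM in doxorubicin rats 2, 3, 6 and 8, against 0.475, 0.2302, 0.569 and 0.504 CPM in control rats 1, 4, 5 and 9. The groups overlapped, and the rat with the lowest Abcb1a among the treated, rat 8, was second highest for Abcb1b. Its log2 fold change was 0.19 ± 0.32 (SE), with a 95% interval from -0.51 to 0.89 (adjusted p = 0.968, from the quasi-likelihood test of edgeR with Benjamini-Hochberg adjustment over all genes). The lowest estimated count was 12.9, a counting error of 27.8%, and the upper end of the interval is 1.85-fold.

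Abcb4 (ENSRNOG00000068001.1), which moves phosphatidylcholine into bile in the liver, was barely detected. It had 0.208, 0.108, 0.215 and 0.217 CPM in doxorubicin rats 2, 3, 6 and 8, against 0.229, 0.195, 0.152 and 0.552 CPM in control rats 1, 4, 5 and 9. These are 6 to 23 estimated counts per library, and control rat 9 alone was above the rest. Abcb4 had a log2 fold change of -0.54 ± 0.44 (SE; edgeR adjusted p = 0.913), and without control rat 9 it was -0.05.

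**Figure D1:**
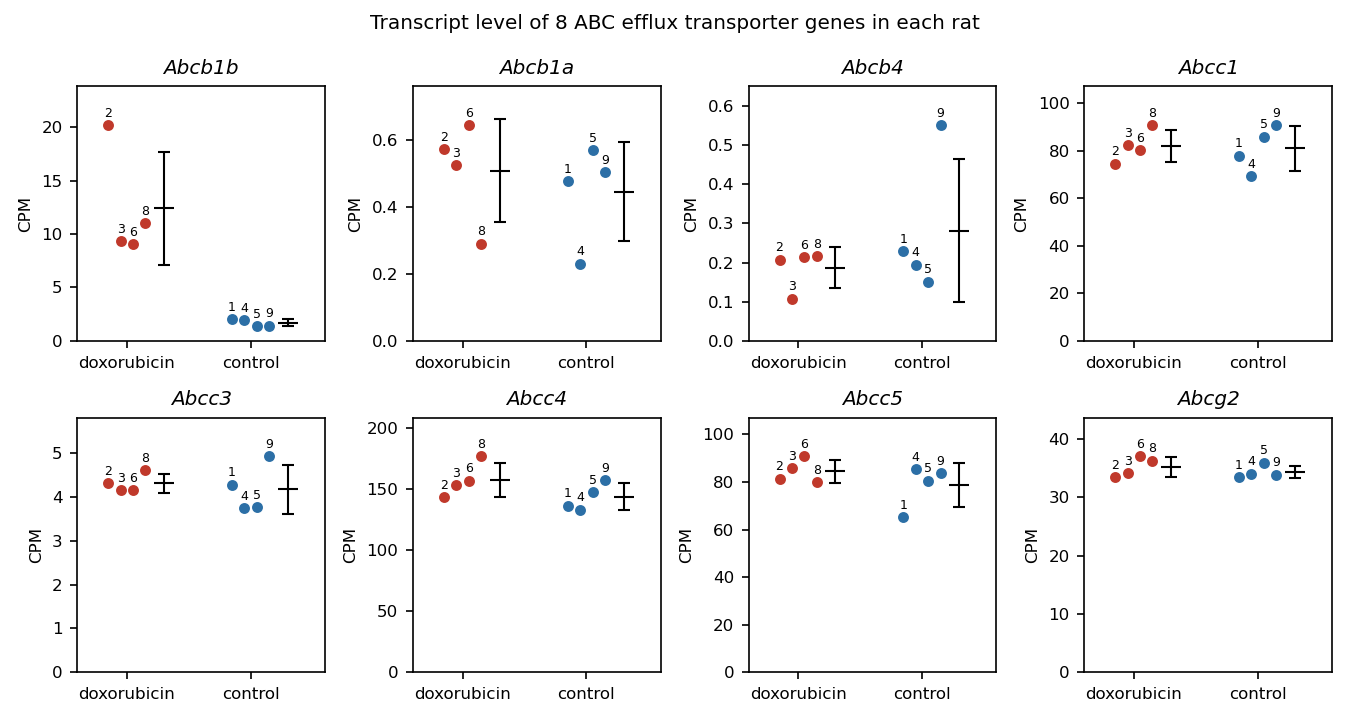
CPM (vertical axis, from 0) of each of the 8 efflux transporter genes in doxorubicin and control rats; each point is a rat with its number, and the bar beside each group is the mean with its SD. For Abcb1b the treated rats lie at 9.03 to 20.2 CPM, above all controls, while in the other panels the groups overlap.

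Abcb1a and Abcb1b are close paralogs, so how their reads were divided matters. In every library the estimated counts of both genes were fractional (by more than 1e-06), and in 6 of 8 libraries the fractions added to a whole number. In doxorubicin rats 2 and 6 the sum became whole only when Abcb4 was added, and the counts of the 3 genes together were whole in 8 of 8 libraries. These totals were 1213, 551, 415 and 637 counts in doxorubicin rats 2, 3, 6 and 8, and 154, 134, 111 and 103 counts in control rats 1, 4, 5 and 9. No other row was needed to complete the fractions, as when reads that match several of these genes are divided among them.

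The share of the Abcb1a and Abcb1b total assigned to Abcb1b was 97.2%, 94.8%, 93.5% and 97.4% in doxorubicin rats 2, 3, 6 and 8, against 81.1%, 89.5%, 70.7% and 73.7% in control rats 1, 4, 5 and 9. When both genes were counted as 1 feature, the level was 12.9 ± 5.30 CPM after doxorubicin and 2.13 ± 0.26 CPM in controls (SD, n = 4 each). The log2 fold change of the summed pair was 2.59 ± 0.27 (SE), a value that does not depend on how reads were split between them. The treated libraries of the pair spanned 9.68 to 20.8 CPM, against 1.92 to 2.48 CPM in controls.

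**Figure D2:**
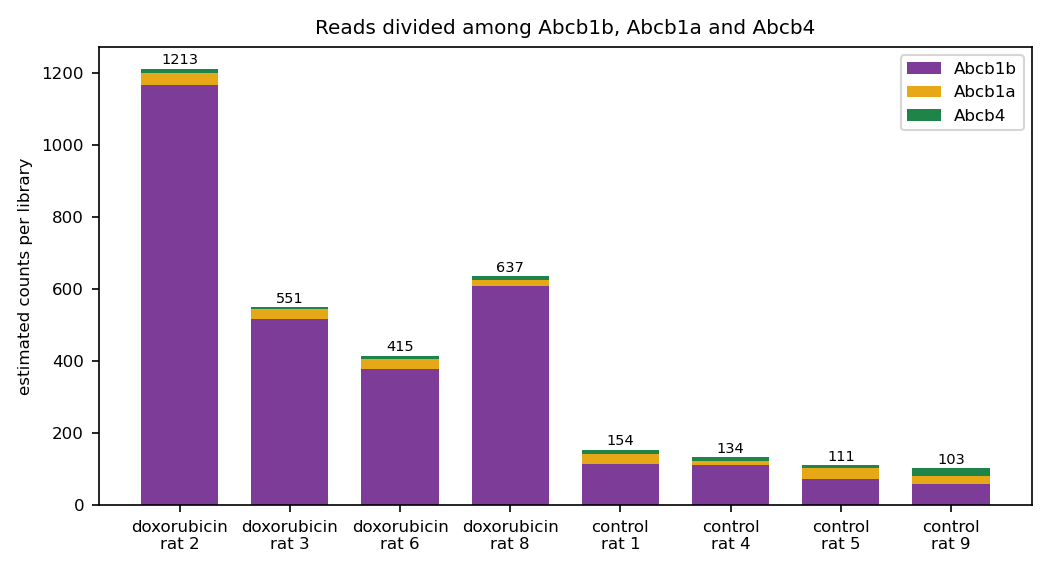
Estimated counts per library (vertical axis, not scaled for depth) of Abcb1b, Abcb1a and Abcb4, stacked, with the whole-number total above each bar. The Abcb1b part fills most of every bar, treated and control, while the Abcb1a part stays between 12.9 and 33.2 counts in all 8 libraries.

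The RefSeq promoter windows of the pair (GRCr8, which is not the rn6 build named for the files) are shown because their transcript starts hold sequence in common. Each window runs from 250 bases before the annotated start to 50 bases after it, 5′ to 3′ on the gene's strand. Abcb1b is at chr4:26279980-26280279 and Abcb1a at chr4:26397599-26397898, both on the minus strand. Capitals mark runs of at least 10 bases present in both windows.
Abcb1b: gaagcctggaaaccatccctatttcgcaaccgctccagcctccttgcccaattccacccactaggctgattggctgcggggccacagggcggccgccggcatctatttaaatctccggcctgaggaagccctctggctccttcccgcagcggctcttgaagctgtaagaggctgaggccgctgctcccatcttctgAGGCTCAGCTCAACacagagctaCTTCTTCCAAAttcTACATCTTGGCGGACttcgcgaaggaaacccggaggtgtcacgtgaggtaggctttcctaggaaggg
Abcb1a: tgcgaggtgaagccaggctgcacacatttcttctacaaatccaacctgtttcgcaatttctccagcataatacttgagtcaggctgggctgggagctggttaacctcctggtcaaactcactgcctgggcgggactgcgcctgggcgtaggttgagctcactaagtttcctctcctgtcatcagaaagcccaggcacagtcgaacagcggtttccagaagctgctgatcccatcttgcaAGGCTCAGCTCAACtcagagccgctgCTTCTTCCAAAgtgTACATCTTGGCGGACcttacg
The windows share 3 such runs, the longest of 15 bases. They lie between positions -54 and -3 from the annotated start of Abcb1b and between -11 and 44 from that of Abcb1a, so the annotated starts sit at different points of the common stretch. Upstream of it no run of this length is common to both.

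Promoter windows were matched for 6 of the 8 members and searched on both strands for the 6 motifs given here. The Abcb1b window held CCAAT, the core bound by NF-Y, at positions -203 and -182. No other member's window held it, where 37.5% of 33469 RefSeq windows of the same length do. All 6 windows held GGGCGG, an Sp1 core found in 33.1% of all windows, and the Abcb1a window held TGANTCA, the AP-1 motif found in 7.33%. GCGTG, the core of the Ahr element, was in 4 of the 6 windows and in 29.7% of all. The antioxidant response core TGACNNNGC, present in 12.1% of all windows, and TATAAA, in 14.2%, were in none of the 6. None of these motifs overlapped another in the Abcb1b or Abcb1a window.

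In the gene order of the GRCr8 annotation, Abcb1b lies between Abcb4 and Abcb1a on chromosome 4. The 3 nearest protein-coding genes on either side were Dmtf1, Tmem243 and Crot beyond Abcb4, and Rundc3b, Slc25a40 and Dbf4 beyond Abcb1a. None of these 6 passed the edgeR threshold, 0 reached an unadjusted p of 0.05 and DESeq2 called 0. Over all genes tested the shares were 0.112%, 6.75% and 1.02%, so 0 of 6 lies near those shares. The median log2 fold change of the 6 was 0.0010, against -0.0047 over all genes. Crot, a peroxisomal carnitine acyltransferase, measured 77.4 ± 4.42 CPM after doxorubicin and 78.1 ± 5.93 CPM in controls (SD, n = 4 each). Rundc3b, whose annotated span overlaps that of Abcb1a, measured 71.0 ± 3.64 CPM after doxorubicin and 69.7 ± 3.66 CPM in controls. Dbf4, the activator of the replication kinase Cdc7, differed by 0.03 on the log2 scale (95% interval -0.06 to 0.12).

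**Figure D3:**
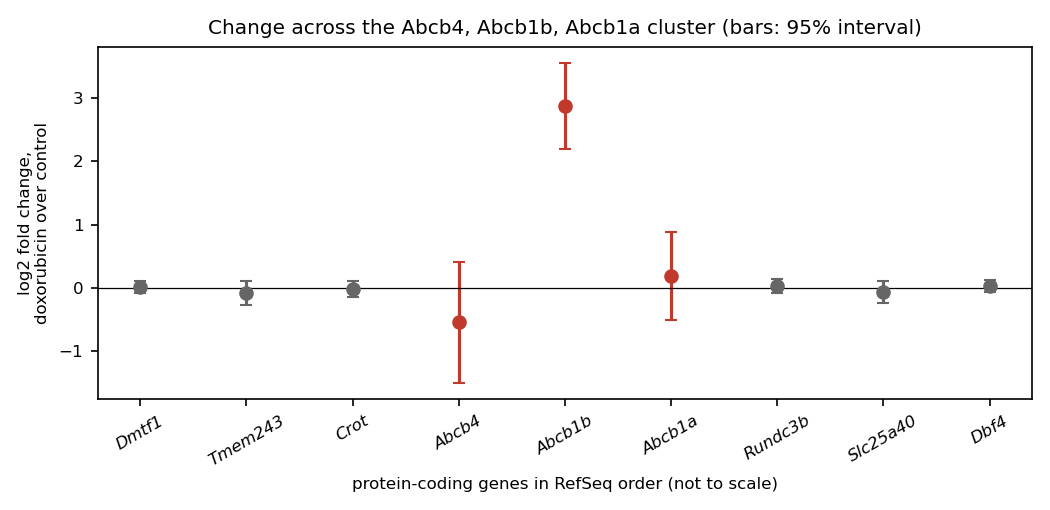
Log2 fold change, doxorubicin over control (vertical axis), with 95% intervals for Abcb4, Abcb1b, Abcb1a and the 3 protein-coding neighbours on each side, in chromosome order and not to scale. The 6 neighbours lie between -0.08 and 0.03, and Abcb1b stands at 2.87.

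Among the MRP genes, Abcc1 (ENSRNOG00000022305.6) encodes MRP1, a pump of glutathione conjugates that also exports anthracyclines. It had 74.6, 82.4, 80.2 and 90.8 CPM in doxorubicin rats 2, 3, 6 and 8, against 77.8, 69.4, 85.8 and 90.7 CPM in control rats 1, 4, 5 and 9. The groups covered nearly the same range, and the log2 fold change was 0.02 ± 0.08 (SE; edgeR adjusted p = 0.989). Its 95% interval, from -0.17 to 0.21, spans 0.89-fold to 1.15-fold. The fractions of Abcc1 were completed to whole numbers in 8 of 8 libraries by the row AABR07028997.1, which held 239.7 to 336.8 counts in doxorubicin libraries and 255.8 to 357.0 counts in control libraries.

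Abcc4 (ENSRNOG00000010064.9) encodes MRP4, an exporter of cyclic nucleotides and nucleotide analogues. It had 143.3, 153.1, 156.6 and 176.6 CPM in doxorubicin rats 2, 3, 6 and 8, against 136.4, 133.2, 147.5 and 157.3 CPM in control rats 1, 4, 5 and 9. Control rat 9 lay above doxorubicin rats 2, 3 and 6, so the groups overlapped. The levels were 157.4 ± 14.0 CPM after doxorubicin and 143.6 ± 11.0 CPM in controls (SD, n = 4 each). On the log2 scale the difference was 0.13, with an interval from -0.02 to 0.28 (edgeR adjusted p = 0.793).

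Abcc5 (ENSRNOG00000029178.7) encodes MRP5, an exporter of cyclic GMP. It had 81.4, 85.8, 90.7 and 79.8 CPM in doxorubicin rats 2, 3, 6 and 8, against 65.2, 85.4, 80.5 and 83.8 CPM in control rats 1, 4, 5 and 9. Control rat 1 was the lowest of the 8. Its log2 fold change was 0.10 ± 0.08 (SE; edgeR adjusted p = 0.909), and without control rat 1 it was 0.02.

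Abcc3 (ENSRNOG00000002948.8) encodes MRP3, which moves bile salts and glucuronides out of liver cells. It had 4.31, 4.15, 4.15 and 4.60 CPM in doxorubicin rats 2, 3, 6 and 8, against 4.27, 3.74, 3.75 and 4.92 CPM in control rats 1, 4, 5 and 9. The treated values lay inside the control range, and the log2 fold change was 0.05 ± 0.12 (SE; edgeR adjusted p = 0.980). The estimated counts of Abcc3 were whole in 0 of 8 libraries. Its best single partner row completed them in only 1 of 8, so the rows that complete them were not identified. Over Abcc1, Abcc3 and Abcc4 alike, rat 8 was the highest of the treated rats, and rats 9 and 4 were the highest and lowest of the controls.

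Abcg2 (ENSRNOG00000007041.7) was the steadiest of the 8 between rats. It had 33.5, 34.1, 37.0 and 36.2 CPM in doxorubicin rats 2, 3, 6 and 8, against 33.5, 34.1, 35.9 and 33.9 CPM in control rats 1, 4, 5 and 9. The coefficient of variation was 4.77% after doxorubicin and 3.20% in controls, where those of Abcb1b were 42.6% after doxorubicin and 19.8% in controls. Abcg2 had a log2 fold change of 0.04, and its 95% interval ran from -0.07 to 0.15, or 0.95-fold to 1.11-fold (edgeR adjusted p = 0.961).

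All 8 members passed the filter on low counts. Of them, 1 passed the edgeR threshold, Abcb1b, where 0.112% of the 16976 genes tested passed in either direction, 0.106% higher and 0.00589% lower. Since that call is why the family was chosen, nothing is read from the count, and the call was lost without doxorubicin rat 8 or without any of the 4 controls. Of the other 7, none passed, 0 reached an unadjusted p of 0.05 (6.75% of all genes did) and DESeq2 called 0 (1.02% of all genes). Across the 8 the median log2 fold change was 0.07, against -0.0047 over all genes. Because no transcript lengths were used, levels are not ranked between genes.

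Endothelial cells are the testis cell type best known for these pumps. The 9 endothelial markers summed to 97.6 to 109.3 CPM after doxorubicin and 85.4 to 99.8 CPM in controls, and Pecam1 alone averaged 73.6 CPM. Cdh5, which defines endothelium more narrowly, stood at 1.125 to 3.10 CPM after doxorubicin and 1.63 to 3.20 CPM in controls. Emcn stood at 0.02 to 0.09 CPM after doxorubicin and 0.02 to 0.17 CPM in controls. Cdh5 and Emcn were added after their values were seen and do not stand for the list. The markers that carry the rest of the sum are not given singly. Averaged per group, the endothelial sum was 102.2 CPM after doxorubicin and 95.3 CPM in controls. Log2 fold changes were positive for 6 of the 7 endothelial markers tested and negative for 1, and their median was 0.09. None of the endothelial markers tested passed the edgeR threshold, 0 reached an unadjusted p of 0.05 and DESeq2 called 0. Over all genes tested these shares were 0.112%, 6.75% and 1.02%. The part of endothelial cells in the Abcb1b level was not tested. Among erythroid markers, Slc4a1 rose to 6.08 to 10.8 CPM after doxorubicin, against 2.62 to 3.36 CPM in controls (edgeR adjusted p = 0.0339), and the 7 together summed to 9.84 to 15.7 CPM after doxorubicin and 7.88 to 9.92 CPM in controls. The globin genes of that list passed DESeq2 as lower and not edgeR, with Hbb at 0.688 CPM after doxorubicin and 1.55 CPM in controls and Hba-a1 at 1.121 CPM after doxorubicin and 2.06 CPM in controls (edgeR adjusted p = 0.192 for Hbb and 0.206 for Hba-a1). Their part in the results was not tested either. Of 8 peritubular and stromal markers tested, 7 had a negative log2 fold change and 1 a positive one, with a median of -0.27. By an unadjusted edgeR p of 0.05, 1 was higher and 2 lower, where 4.19% of all genes were higher and 2.56% lower. By adjusted p, edgeR and DESeq2 each called 0 of these 8.

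The treated rats were then ranked by their log2 level above the control mean. For Abcb1b the values were 3.57, 2.46, 2.41 and 2.70 in doxorubicin rats 2, 3, 6 and 8, and rat 2 exceeded the mean of the others by 1.05. Of 8 DNA damage response genes compared (Cdkn1a, Ccng1, Eda2r, Mdm2, Bbc3, Bax, Fas and Aen), 3 passed edgeR, all higher, against 0.106% of all genes tested. By unadjusted p 8 were higher, against 4.19% of all genes, and by DESeq2 7, against 0.948%. These genes were picked with their earlier results known, so the counts are a description. Rat 2 was first in all 8, and rat 8 second for Cdkn1a, Ccng1, Eda2r, Bbc3, Fas and Aen. The excess of rat 2 over the others was 1.20 for Cdkn1a, which encodes the cell cycle inhibitor p21, 0.96 for Ccng1, which encodes cyclin G1, and 1.19 for Bbc3, encoding PUMA, a BH3-only inducer of cell death. It was 0.63 for the TNF receptor family gene Eda2r and 0.33 for the ubiquitin ligase gene Mdm2. For Abcb1a the order differed, with rat 6 first at 0.56 and rat 8 last at -0.49. That order is uncertain, since it rests on 16.3 to 33.2 estimated counts per treated library, from reads divided with Abcb1b.

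Of 13600 other genes with at least 1 CPM in a group, the 6 whose log2 levels lay closest to those of Abcb1b over the 8 libraries were Eda2r, Ccng1, Bbc3, Dnajb5, Inpp5d and Kcnn4. The measure was the root-mean-square difference in log2 CPM after centring each gene on its control mean, and it was 0.20 for Eda2r, 0.22 for Ccng1 and 0.31 for Bbc3. For Dnajb5, a member of the HSP40 co-chaperone family, it was 0.32, for Inpp5d, the lipid phosphatase SHIP1, 0.35, and for Kcnn4, a calcium-activated potassium channel, 0.36. The median over all genes compared was 2.01, a value set by the size of the Abcb1b change itself. With standardised profiles, which ignore the size of the change, 3 of these 6 genes (Eda2r, Ccng1 and Bbc3) were again among the closest 6. The choice by closeness fixes that these genes share the group difference of Abcb1b and its high value in rat 2. Kcnn4 reached 1 CPM only after doxorubicin, at 1.26 CPM against 0.185 CPM in controls, so it entered the comparison through the group where it is high.

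**Figure D4:**
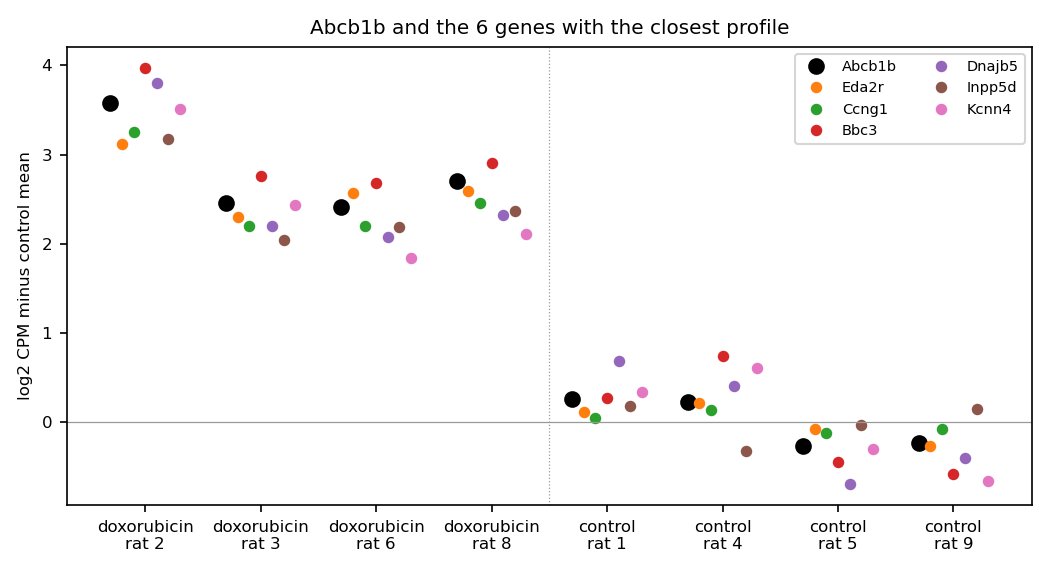
Log2 CPM minus the gene's control mean (vertical axis) in each of the 8 libraries for Abcb1b (large black points) and the 6 genes closest to it. All 7 genes are highest in doxorubicin rat 2, where Abcb1b stands at 3.57, and the treated and control points do not overlap.

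The wider ABC family was examined from a list by role. Of 48 other ABC genes, 45 were tested and 0 passed edgeR over all genes (5 higher and 0 lower by an unadjusted p of 0.05, a level that 6.75% of all genes tested reach, 4.19% higher and 2.56% lower; DESeq2 called 3 higher, against 0.948% of all genes called higher and 1.02% in either direction). Their log2 fold changes were positive for 29 and negative for 16, with a median of 0.03. The genes at an unadjusted p below 0.05 were Abca12, Abca1, Abca14, Tap1 and Abcd4.

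Abca12, a lipid transporter of the skin barrier, had 1.1203 to 4.03 CPM after doxorubicin and 0.336 to 0.702 CPM in controls, with a log2 fold change of 1.85 ± 0.42 (SE; edgeR adjusted p = 0.193, DESeq2 adjusted p = 0.000584). Its treated rats stood in the same order as for Abcb1b, with rat 2 first, and without rat 2 its log2 fold change was 1.33. Tap1, a subunit of the peptide transporter for antigen presentation, had 4.79 to 8.56 CPM after doxorubicin and 2.42 to 4.87 CPM in controls (log2 fold change 0.86, and 0.65 without rat 2; edgeR adjusted p = 0.335, DESeq2 adjusted p = 0.0196). The treated rats stood in the order of Abcb1b for Tap1 as well. Its partner Tap2 differed by 0.02 on the log2 scale (95% interval -0.25 to 0.30). Abca1, the cholesterol exporter, had 135.6 to 167.2 CPM after doxorubicin and 117.4 to 133.0 CPM in controls (log2 fold change 0.26, and 0.19 without rat 2; edgeR adjusted p = 0.189, DESeq2 adjusted p = 0.0206). Abcd4, which takes part in lysosomal cobalamin export, had 12.4 to 13.8 CPM after doxorubicin and 10.8 to 11.7 CPM in controls, without a call by either tool (edgeR adjusted p = 0.389).

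No other ABC gene was called by either tool. Among 9 other drug, bile salt and anion exporters tested, with log2 fold changes from -0.16 to 0.81, Abcc10 (MRP7), Abcc6, Abcg3l3 and Abcc2 (MRP2) had log2 fold changes of 0.03, 0.12, -0.06 and -0.16. Among 18 lipid and sterol transporters, Abca2, Abcg1 and Abca3 had log2 fold changes of 0.04, 0.06 and -0.08. Among 11 transporters of organelles, Abcb8, which sits in the mitochondrial inner membrane, had a log2 fold change of 0.02, the peroxisomal Abcd3 of 0.03, and Abcb6 of -0.12. The channel genes Cftr, Abcc8 and Abcc9 had log2 fold changes of 0.15, 0.00046 and -0.13. The soluble proteins of translation had -0.03 for Abcf2, -0.01 for Abcf1, 0.01 for Abce1 and 0.0049 for Abcf3.

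**Figure D5:**
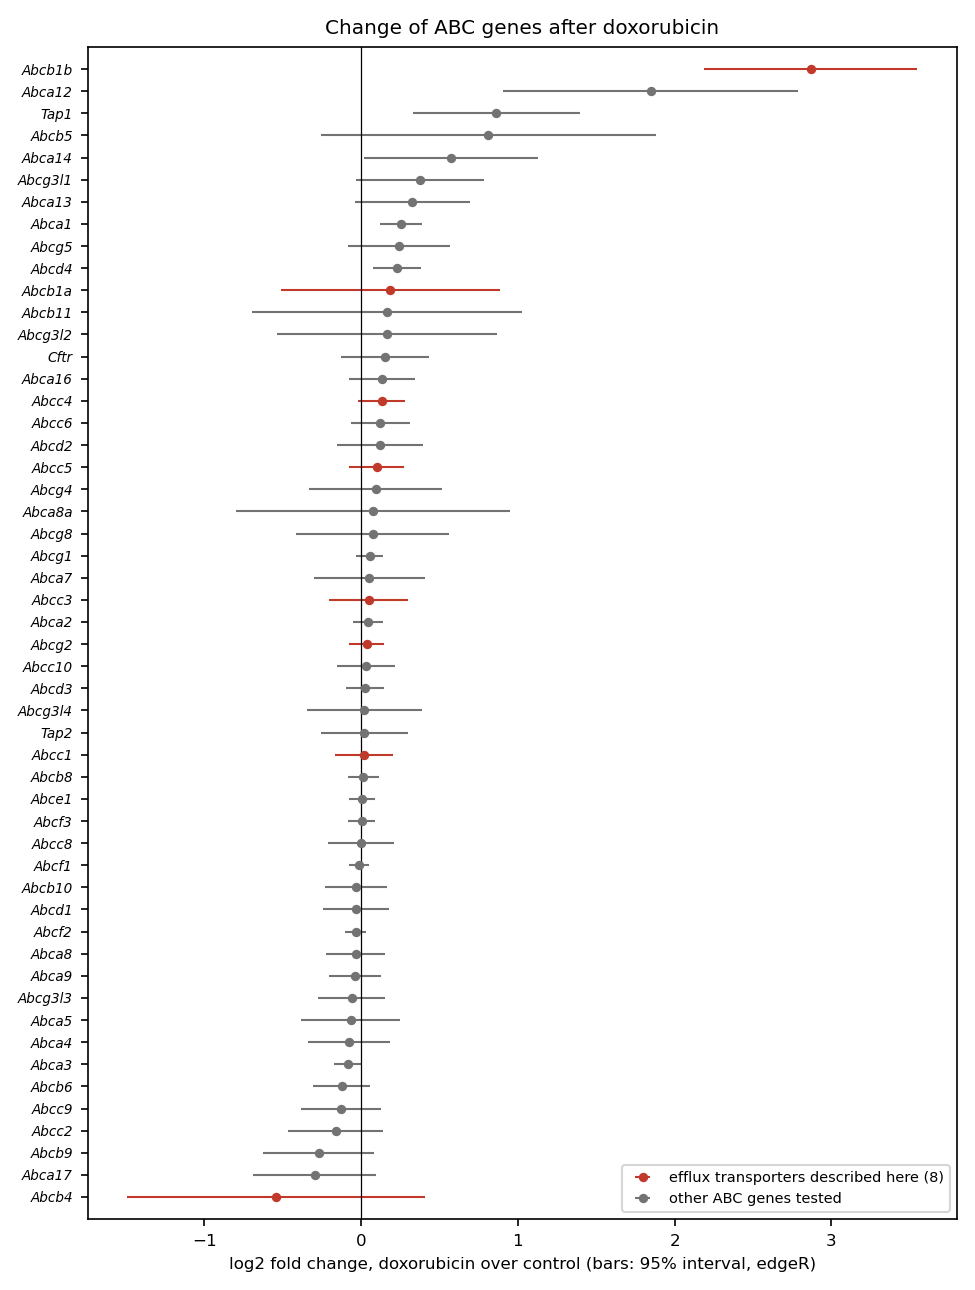
Log2 fold change, doxorubicin over control (horizontal axis), with 95% intervals for the 8 efflux transporter genes (red) and other ABC genes tested (grey), ordered by value. Abcb1b is at the top at 2.87, followed by Abca12 at 1.85, and most others lie near 0 with intervals that include it.

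The lists of uptake carriers, other exporters and glutathione genes held no calls among their tested members. Over all genes tested, 0.112% passed edgeR, 6.75% reached an unadjusted p of 0.05 and DESeq2 called 1.02%. In lists this short, 0 calls lie near those shares. Of 12 uptake carriers tested, 0 passed edgeR (0 reached an unadjusted p of 0.05 and DESeq2 called 0), with a median log2 fold change of -0.05. Slc22a5, the carnitine carrier, measured 27.2 ± 0.96 CPM after doxorubicin and 29.3 ± 1.39 CPM in controls, and Slco3a1 and Slco2a1 had log2 fold changes of -0.19 and -0.42. Slc22a16, a carnitine carrier of the testis reported in human to take up doxorubicin and named here outside the naming rule, measured 5.87 ± 0.38 CPM after doxorubicin and 5.72 ± 0.59 CPM in controls (SD, n = 4 each). Its 95% interval ran from -0.19 to 0.26 on the log2 scale. Of 6 exporters outside the ABC family, 0 passed edgeR (0 by unadjusted p, DESeq2 0), and Slc47a2, Atp7b and Atp7a had log2 fold changes of 0.17, -0.04 and -0.02.

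Of 18 genes of glutathione synthesis and conjugation tested, 0 passed edgeR (by unadjusted p, 1 was higher and 1 lower, where 4.19% of all genes were higher and 2.56% lower; DESeq2 called 0). Those were Gsr, glutathione reductase, with a log2 fold change of 0.10, and Ggt1, gamma-glutamyltransferase, with one of -0.71 at 0.217 CPM after doxorubicin and 0.348 CPM in controls. Gstp1, a glutathione transferase, had a log2 fold change of 0.22. Of 8 membrane scaffold genes, 0 passed edgeR (0.112% of all genes did), 0 by unadjusted p (6.75%) and 0 by DESeq2 (1.02%). Pdzk1, Flot2 and Cav1 had log2 fold changes of 0.17, 0.07 and -0.26.

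Of 24 transcription factors known from drug transporter promoters, 0 passed edgeR (by unadjusted p, 4 were higher and 0 lower, where 4.19% of all genes were higher and 2.56% lower; DESeq2 called 0), with a median log2 fold change of 0.02. Those with the smallest p were Foxo3, Tp73 and Ahr. Foxo3 measured 62.3 ± 6.60 CPM after doxorubicin and 53.3 ± 1.73 CPM in controls (edgeR adjusted p = 0.322). Tp73, which encodes p73, measured 2.98 ± 1.97 CPM after doxorubicin and 1.30 ± 0.42 CPM in controls (edgeR adjusted p = 0.617). For Tp73, doxorubicin rat 2 stood at 5.92 CPM. The other treated rats had 1.67 to 2.19 CPM and the highest control 1.86 CPM, so the groups overlapped. The aryl hydrocarbon receptor gene Ahr measured 17.9 ± 2.28 CPM after doxorubicin and 15.001 ± 1.54 CPM in controls (edgeR adjusted p = 0.621).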

How the data were processed

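The authors deposited estimated counts per gene, not normalized, for 8 libraries, 4 from doxorubicin and 4 from control rats. The submitters' processing notes list kallisto 0.48.0 and featureCounts, the trimmers fastp 0.23.2 and Trimmomatic, FastQC 0.11.9 with MultiQC 1.12, DESeq2 1.40.2, and the rn6 build, with no order. How strand and shared reads were handled is not given in the sources used here. Values were rounded to whole numbers, and 7 of 2356 rows without a symbol were named by Entrez identifier from RefSeq GRCr8.

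After filterByExpr and TMM scaling, edgeR 4.0.16 was applied (quasi-likelihood F test, robust, no covariate; R 4.3.3) to 16976 genes, with Benjamini-Hochberg adjustment and a threshold of 0.05. DESeq2 1.42.0 and limma-voom (limma 3.58.1) were alternatives. Log2 CPM used a prior count of 2, and intervals cover 95%. Counting errors cover counting only.

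Members and lists were chosen with earlier results of these data known. Genes were named by rule: all members, other ABC genes with the 4 highest control CPM in each role or an unadjusted p below 0.05, the 3 smallest p of each other list, the 6 closest profiles, the neighbours, damage response genes for the order of rats, markers that carry a sum and list genes that were called. Tap2, Cdh5, Emcn, Hbb and Hba-a1 were added after their values were seen. Some genes and a motif that these rules cover are not reported here. The procedure was tested on simulated counts. Levels per length and the protein comparison were not run. Labels call the libraries separate rats.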

Additional observations from a re-analysis of the deposited data

Results flagged for a closer look

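Of 50 groups of 4 libraries examined, 4 had a library far from the other 3 relative to the range of its group. Chance gives about 1 in 20 groups, or 2.5. The groups are not independent, since they come from the same 8 libraries. Bbc3 and Dnajb5 were also among the 6 genes closest to Abcb1b, a choice that fixes a high value in rat 2. Nothing is therefore read from the count. In doxorubicin rat 3, Abcb4 stood at 0.108 CPM, below the 0.208 to 0.217 CPM of the other treated rats, a value that rests on 6 counts. In doxorubicin rat 2, Cdkn1a reached 36.0 CPM, Bbc3 19.4 CPM and Dnajb5 17.9 CPM, while the other treated rats spanned 14.96 to 16.9 CPM for Cdkn1a, 7.89 to 9.26 CPM for Bbc3 and 5.41 to 6.42 CPM for Dnajb5. Abcb1b was likewise highest in that rat, at 20.2 CPM, without standing far enough apart to be counted among the 4.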

How the results depend on the processing

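Over all genes edgeR called 18 higher and 1 lower. DESeq2 called 161 higher and 12 lower, limma-voom 4 higher, the fit without robust estimation 52 higher, and a fit that adds a term for lower against higher rat numbers 60 higher. With a mean of at least 1 CPM required, 0 were lower. Leaving out a library gave 1 to 59 higher and 0 to 3 lower.

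The log2 fold change of Abcb1b was 2.53 to 3.00 with a library left out, but the edgeR call was lost without doxorubicin rat 8 or any of control rats 1, 4, 5 and 9, and 0 to 1 members were then called. With limma-voom it was 2.82 and missed the threshold, leaving 0 members called. Within rats 1 to 4 the log2 difference of Abcb1b was 2.77, and within rats 5 to 9 it was 2.80 (2 treated and 2 control rats each). Since every treated library lay above every control library, a rise in both sets was fixed in advance. For Abcb1a the same differences were 0.66 and -0.28. With a library left out, the log2 fold change of Abcb1a ran from -0.0319 to 0.384, its sign turning without control rat 4. That of Abcc1 ran from -0.0435 to 0.0822, turning without control rat 4 or doxorubicin rat 8 (-0.033). DESeq2 called 2 lipid transporters and 1 organelle transporter, where edgeR called 0. Causes were not tested. Levels from unrounded counts moved by less than the SD. The summed pair was added after seeing the data. No paired analysis was possible because the groups share no rat number. Depth limits Abcb4 and Abcb1a, whose lowest libraries held 6 and 12.9 counts.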
